A study of Mus musculus with 8 samples.

Results

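The genes described here make cholesterol and fatty acids, sense sterols and remove them, and 33 were listed by symbol: 18 enzymes of sterol synthesis, 6 genes of sterol sensing and transfer, 3 of sterol removal and 6 of fatty acid synthesis. All 33 were found among the 51912 genes of the deposited count table and all 33 passed the filter on low counts. The list does not hold every enzyme of either route. They were measured by bulk RNA sequencing in sorted mesenchymal cells of mouse lung (tissue label: bulk lung) at embryonic day 16, and doxycycline was given from embryonic day 12 through the mothers' feed. The 4 Sin3a CKO libraries came from Tbx4rtta; tetocre; Sin3a F/F embryos, in which the Tbx4-driven activator switches on Cre and both Sin3a alleles are floxed, and the 4 Control libraries from Tbx4rtta; tetocre; Sin3a F/+ embryos, which carry the same transgenes and doxycycline with 1 floxed allele. Controls can therefore have lost 1 allele in the same cells, and how far deletion went is not given in the labels. Libraries are labelled as biological replicates, and nothing says whether embryos shared a litter. The SIN3A protein is the platform on which a histone deacetylase corepressor complex is built.

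Cells build cholesterol from acetyl-CoA through mevalonate, farnesyl diphosphate, squalene and lanosterol, and fatty acids from acetyl-CoA through malonyl-CoA. When membrane sterol is low, SCAP carries the SREBP factors from the endoplasmic reticulum to the Golgi, where they are cut and released to switch on most of these enzymes, and INSIG proteins hold SCAP back when sterol is plentiful. Surplus sterol is sensed through LXR receptors, which switch on the exporters ABCA1 and ABCG1. In developing lung both routes supply membranes and, in the epithelium, surfactant lipid.

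Libraries held 96098322 to 108493347 counts, of which the 33 genes took 0.276% to 0.308% in Sin3a CKO and 0.319% to 0.360% in Control. In counts scaled to a library total of 1000000 (CPM), the targeted gene Sin3a was at 56.6, 61.0, 53.2 and 61.0 CPM in Sin3a CKO 1 to 4 and 53.7, 46.8, 46.2 and 58.7 CPM in Control 1 to 4, a change of 0.17 ± 0.09 on the log2 scale that did not pass the test. The deleted exons are not named in the labels, so counts over the whole gene do not check the deletion. The 12 lung mesenchyme markers summed to 12562 to 14118 CPM in Sin3a CKO and 17189.6 to 23470.5 CPM in Control. Collagen genes made up most of each sum, with Col3a1 alone at 5551 to 6628 CPM in Sin3a CKO and 7830 to 10727 CPM in Control. Of the 12 markers 1 rose (Meox2) and 6 fell (Foxf1, Pdgfra, Twist2, Col1a1, Col1a2 and Col3a1). Tbx4, Tbx5, Tcf21, Dcn and Wnt2 did not pass. Of 10 erythroid markers 6 rose, with sums of 1097 to 4291 CPM in Sin3a CKO and 102 to 884 CPM in Control, and 2, Klf1 and Epb42, under 1 CPM in every library. Sums over 12 epithelium markers were 149 to 1433 CPM in Sin3a CKO and 167 to 560 CPM in Control, and over 10 endothelium markers 62.7 to 129.6 CPM in Sin3a CKO and 46.8 to 223 CPM in Control, with 1 endothelium marker lower and no other of either list called. The 6 mesothelium markers summed to 28.5 to 73.4 CPM in Sin3a CKO and 38.4 to 69.1 CPM in Control. The part of these cells in the lipid gene results was not tested, and in bulk samples fewer cells of a type and less RNA per cell cannot be told apart.

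The route did not move as 1 unit in Sin3a CKO mesenchyme. Of the 18 sterol synthesis enzymes 6 rose and 5 fell by edgeR's quasi-likelihood test at a Benjamini-Hochberg adjusted p under 0.05 and 7 did not pass, so rises and falls stood side by side along the pathway. The sterol hydroxylase gene Cyp46a1 rose 4.95-fold, the desaturase gene Scd1 fell 5.3-fold, and Scap, the sterol sensor gene, fell by 0.71 ± 0.08 in log2 units (SE of the fit, 4 libraries a group). Across all 33 genes 7 rose (21.2%) and 9 fell (27.3%), where 17.3% of the 20315 genes tested rose and 16.1% fell. In all 16 were called (48.5%), against 33.4% of genes tested. That background holds many genes at low levels. A fit of the 9901 genes with a mean of at least 10 CPM called 3012 higher and 2688 lower, a larger share. It called 19 of the 30 listed genes that it tested. Only Cyp46a1 and Scd1 were both called and changed at least 2-fold, 2 of 33 genes beside 9.43% of genes tested. The median absolute change was 0.39 on the log2 scale for the 33 genes and 0.41 for all genes tested, with a median SE of 0.12 for the 33 and 0.19 for all. Libraries of the groups did not overlap for 16 of the 33, against 36.1% of genes tested.

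**Figure D1:**
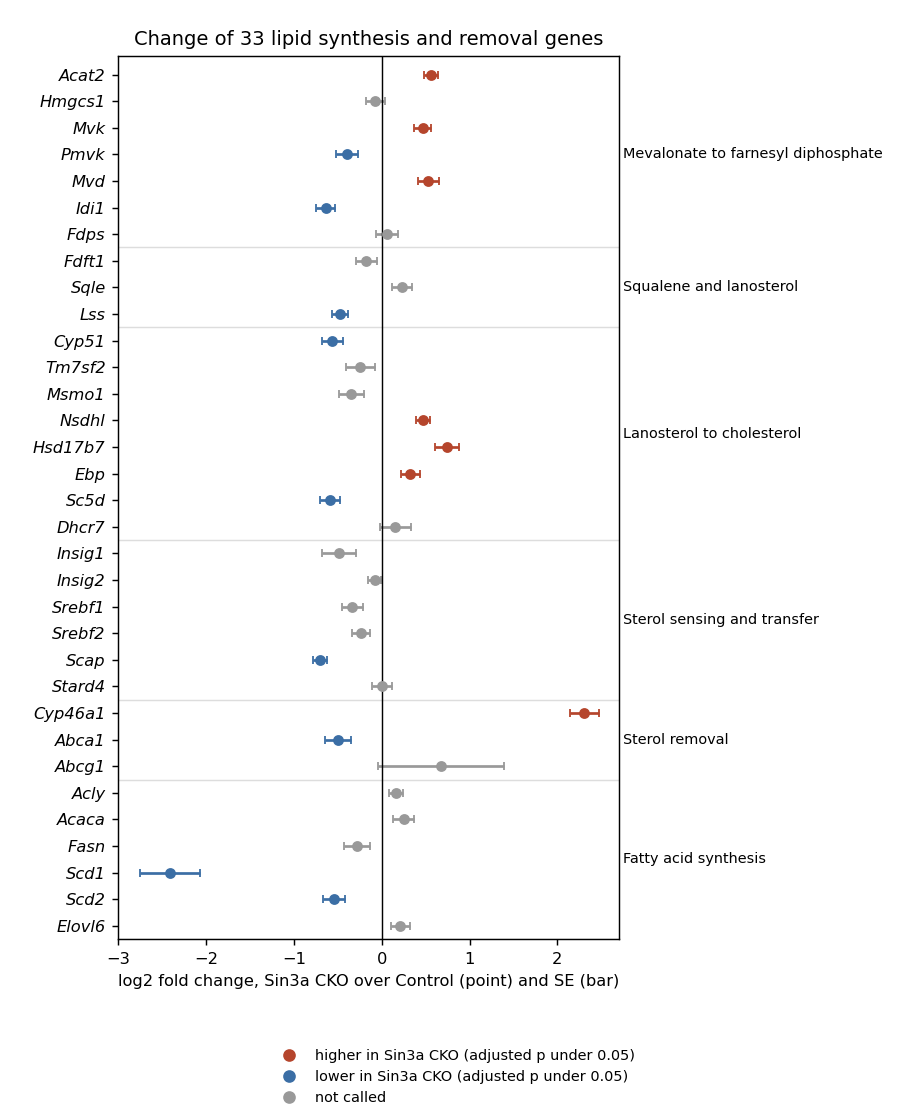
Log2 fold change, Sin3a CKO over Control, of the 33 genes by role, with bars for the SE from edgeR's quasi-likelihood fit over 4 libraries a group. Called rises are red, called falls blue and genes not called grey; Cyp46a1 lies at 2.31 and Scd1 at -2.41, while sterol synthesis enzymes spread from -0.64 to 0.74.

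Promoter sequences are shown for 5 genes on which the results turn: the largest rise (Cyp46a1), a rising and a falling enzyme that hold the same pair of motifs (Hsd17b7 and Sc5d), the holder of a sterol regulatory element (Hmgcs1) and the falling sterol sensor (Scap). Each runs from 250 bases before to 50 after a start site, 5′ to 3′ on the gene's strand, from RefSeq on GRCm38.p6, where 26 of the 33 genes had an entry. They are chr12:108334066-108334365 (plus strand) for Cyp46a1, chr1:169969156-169969455 (minus) for Hsd17b7, chr9:42264251-42264550 (minus) for Sc5d, chr13:119690101-119690400 (plus) for Hmgcs1 and chr9:110333038-110333337 (plus) for Scap. Capitals mark CCAAT, the E-box CACGTG and the sterol regulatory element TCACCCCAC, each searched on both strands, so that ATTGG is a CCAAT box read from the other strand. Matches of different motifs did not overlap in any listed promoter.
Cyp46a1: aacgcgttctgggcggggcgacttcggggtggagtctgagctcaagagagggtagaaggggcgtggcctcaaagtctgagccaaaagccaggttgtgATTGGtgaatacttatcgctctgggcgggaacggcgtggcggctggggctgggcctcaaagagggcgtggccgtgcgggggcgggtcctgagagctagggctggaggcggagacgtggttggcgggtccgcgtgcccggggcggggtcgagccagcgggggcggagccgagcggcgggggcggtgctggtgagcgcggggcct
Hsd17b7: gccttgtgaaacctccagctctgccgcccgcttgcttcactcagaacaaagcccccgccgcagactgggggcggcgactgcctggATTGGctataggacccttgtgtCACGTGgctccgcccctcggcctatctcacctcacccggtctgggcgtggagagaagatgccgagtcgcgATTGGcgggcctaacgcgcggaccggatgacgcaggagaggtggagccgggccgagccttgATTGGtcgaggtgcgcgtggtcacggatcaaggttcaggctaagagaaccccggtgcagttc
Sc5d: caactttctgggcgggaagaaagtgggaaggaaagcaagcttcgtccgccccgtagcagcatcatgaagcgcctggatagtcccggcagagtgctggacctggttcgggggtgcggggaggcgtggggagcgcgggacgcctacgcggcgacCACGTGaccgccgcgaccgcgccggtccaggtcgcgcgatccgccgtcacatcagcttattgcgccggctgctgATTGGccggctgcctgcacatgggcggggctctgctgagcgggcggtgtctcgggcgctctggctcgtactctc
Hmgcs1: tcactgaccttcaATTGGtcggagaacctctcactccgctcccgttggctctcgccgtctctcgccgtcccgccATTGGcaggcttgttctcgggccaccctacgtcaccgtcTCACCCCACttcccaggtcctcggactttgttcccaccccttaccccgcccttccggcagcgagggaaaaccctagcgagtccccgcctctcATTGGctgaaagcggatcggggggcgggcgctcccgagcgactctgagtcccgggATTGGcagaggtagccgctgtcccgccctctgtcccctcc
Scap: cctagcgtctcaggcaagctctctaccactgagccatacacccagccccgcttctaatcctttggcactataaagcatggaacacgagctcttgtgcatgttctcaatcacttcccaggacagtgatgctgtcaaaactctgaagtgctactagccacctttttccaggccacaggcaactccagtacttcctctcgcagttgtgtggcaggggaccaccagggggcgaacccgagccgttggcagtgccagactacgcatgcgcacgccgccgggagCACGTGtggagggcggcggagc

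A CCAAT box, a site bound by NF-Y, which acts beside SREBP on sterol genes, stood in a window of 21 of the 26 listed genes (80.8%), against 41.1% of 27025 genes with a window (37.4% of all windows). It was found for 6 of 7 rising genes, for 5 of the 7 falling genes with a window and for 10 of the 12 genes not called, so it did not go with 1 direction. The E-box was found for 6 of the 26 genes (23.1%), against 8.09% of all genes. It stood in 1 of 7 rising genes, 3 of the 7 falling genes with a window and 2 of the 12 genes not called, a split that was not tested. It lay 143 bases before the start of Hsd17b7 and 98 before that of Sc5d, which moved in opposite directions. The sterol regulatory element in these letters stood only in the window of Hmgcs1, 137 bases before its start, against 0.614% of all genes. A match is a string of letters and not a measured site.

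At the head of the sterol route, Acat2 (chromosome 17, 12942890 to 12960747, GRCm38), which encodes a cytosolic thiolase that joins acetyl-CoA units, was at 176, 189, 191 and 203 CPM in Sin3a CKO 1 to 4. In Control 1 to 4 it was at 123, 122, 126 and 144 CPM. Every knockout library lay above every control, and the rise was 0.56 ± 0.08 on the log2 scale (adjusted p = 0.000576). Acat2 is uncertain where it is nearly identical to other genes, at 98.7% over 445 bases of Tcp1, which had up to 35386 counts, and at 97.7% over 1477 bases of Acat3, which had up to 129. Mvk, mevalonate kinase, was at 56.3, 66.6, 66.2 and 52.1 CPM in Sin3a CKO and 43.0, 40.2, 44.4 and 47.1 CPM in Control, a rise of 0.47 ± 0.10 (adjusted p = 0.0046). Mvd, the decarboxylase that makes isopentenyl diphosphate, was at 25.4, 25.3, 31.9 and 24.9 CPM in Sin3a CKO and 16.2, 18.4, 22.0 and 17.7 CPM in Control. It rose by 0.53 ± 0.12 (adjusted p = 0.00776), a call that ended without Control 4 and Sin3a CKO 3 together (0.35, adjusted p = 0.0592).

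Between these kinase and decarboxylase steps and after them, other enzymes were lower. Pmvk, phosphomevalonate kinase, which acts between Mvk and Mvd, was at 19.3, 20.1, 27.5 and 17.8 CPM in Sin3a CKO and 27.1, 27.3, 28.7 and 28.2 CPM in Control. Sin3a CKO 3 overlapped the controls, and the fall of 0.39 ± 0.13 (adjusted p = 0.0396) was lost on leaving out any other single library, with adjusted p of up to 0.103. Idi1, which isomerises isopentenyl diphosphate, was at 41.5, 42.6, 42.5 and 42.2 CPM in Sin3a CKO and 57.6, 57.4, 78.1 and 70.1 CPM in Control. The 4 knockouts were nearly level and all below the controls, and the gene fell by 0.64 ± 0.10 (adjusted p = 0.00125). Idi1 has pseudogene copies, among them Gm13502, identical over 684 bases and at no more than 81 counts in any library, against up to 8429 counts for Idi1.

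Hmgcs1, which makes the HMG-CoA that feeds mevalonate and is a standard SREBP target, was at 175, 171, 164 and 196 CPM in Sin3a CKO and 163, 163, 202 and 215 CPM in Control. The knockouts lay inside the range of the controls, and the change was -0.07 ± 0.11 (adjusted p = 0.668). Fdps, farnesyl diphosphate synthase, was at 80.1 to 113 CPM in Sin3a CKO and 79.1 to 104 CPM in Control, a change of 0.06 ± 0.13 that did not pass. Of its exonic bases 1124 are shared on the same strand with the annotated gene Gm43738.

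In the squalene and lanosterol steps Lss, lanosterol synthase, was at 27.5, 28.0, 28.9 and 29.1 CPM in Sin3a CKO and 36.0, 35.1, 43.9 and 42.6 CPM in Control. It fell by 0.47 ± 0.09 (adjusted p = 0.00284), without overlap. Sqle, squalene epoxidase, a rate-limiting step, was at 107, 118, 119.6 and 123 CPM in Sin3a CKO and 89.1, 84.0, 119.8 and 106 CPM in Control. Control 3 stood among the knockouts, and the change of 0.23 ± 0.11 did not pass (adjusted p = 0.158), but did without Control 3 (0.33, adjusted p = 0.0404). Fdft1, squalene synthase, was at 42.2 to 51.6 CPM in Sin3a CKO and 44.1 to 62.6 CPM in Control, a change of -0.18 ± 0.12 that did not pass. It shares 774 exonic bases with Ctsb on the opposite strand, and as the sources used here do not state whether counting used strand, their reads cannot be told apart. The same limit holds for Hmgcs1, Lss, Idi1 and Cyp51, which share 557, 381, 323 and 166 exonic bases with other genes on the opposite strand. Srebf1 and Elovl6 share 109 and 34 exonic bases in the same way.

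Downstream of lanosterol the enzymes again split. Hsd17b7, a ketoreductase of sterol demethylation, had the largest rise of the 18 sterol enzymes, with 42.5, 34.5, 37.5 and 47.5 CPM in Sin3a CKO and 21.9, 19.9, 26.4 and 28.5 CPM in Control. Both groups spread, but the lowest knockout was above the highest control, and the rise was 0.74 ± 0.14 (adjusted p = 0.00245). Nsdhl, the decarboxylating dehydrogenase that works with Hsd17b7, was at 40.8, 41.6, 44.8 and 47.9 CPM in Sin3a CKO and 29.0, 31.1, 31.9 and 34.2 CPM in Control, a rise of 0.47 ± 0.08 (adjusted p = 0.00178). Ebp, the sterol isomerase, was at 22.5, 21.9, 28.9 and 23.8 CPM in Sin3a CKO and 21.3, 19.9, 17.9 and 18.3 CPM in Control. Its rise of 0.33 ± 0.11 (adjusted p = 0.0444) was lost in 15 of 18 alternatives, with adjusted p from 0.0286 to 0.309. Nsdhl and Ebp lie on the X chromosome, and Xist, which female cells transcribe, reached 139 and 117 CPM in Sin3a CKO 1 and 3, 174 and 184 CPM in Control 1 and 2, and at most 0.185 CPM elsewhere. Each group thus held libraries of both kinds.

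Cyp51, lanosterol demethylase, was at 72.4, 81.1, 73.0 and 70.5 CPM in Sin3a CKO and 99.3, 90.8, 114 and 135 CPM in Control. All knockouts were below all controls, and it fell by 0.56 ± 0.12 (adjusted p = 0.00503). Sc5d, the sterol desaturase near the end of the route, was at 15.4, 13.7, 16.0 and 13.3 CPM in Sin3a CKO and 20.6, 19.5, 25.9 and 22.0 CPM in Control, a fall of 0.59 ± 0.11 (adjusted p = 0.00317). The other 3 did not pass. Msmo1, the methyl oxidase of sterol demethylation, was at 36.9 to 42.0 CPM in Sin3a CKO and 39.6 to 63.7 CPM in Control, a change of -0.35 ± 0.14 (adjusted p = 0.0885). Tm7sf2, a sterol reductase, was at 4.81 to 6.49 CPM in Sin3a CKO and 5.69 to 7.98 CPM in Control (-0.24 ± 0.17). Dhcr7, the reductase that ends the route, was at 47.9 to 62.8 CPM in Sin3a CKO and 39.0 to 66.2 CPM in Control (0.15 ± 0.18). All 3 pairs of ranges overlapped. Tm7sf2 shares 532 exonic bases with Vps51 on the same strand. Msmo1 passed as lower in 6 of 18 alternatives, among them DESeq2.

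**Figure D2:**
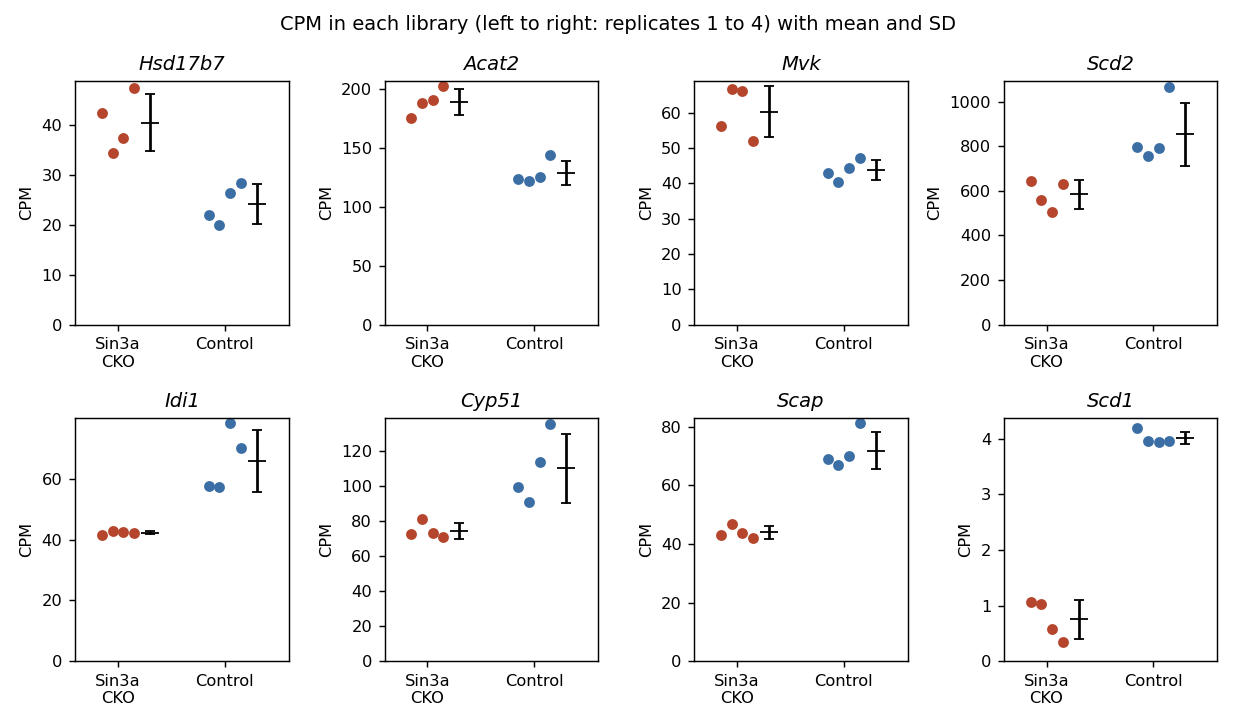
CPM of 8 genes in each library, with Sin3a CKO left of Control, replicates 1 to 4 from left to right in a group, and a bar for the mean and SD of 4 libraries. In each panel all knockouts lie on 1 side of all controls, as for Idi1, with 41.5 to 42.6 CPM in Sin3a CKO and 57.4 to 78.1 CPM in Control.

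The median change of the 18 sterol enzymes was -0.01 on the log2 scale, with 9 above and 9 below 0, beside a median of 0.04 over all genes tested. Per length, as CPM per 1000 exonic bases over all annotated transcripts, levels along the route ran over more than 1 order of size. Acat2 was highest, at 74.5 ± 4.37 in Sin3a CKO and 50.6 ± 4.05 in Control (SD, n = 4 each), ahead of Hmgcs1 at 38.4 ± 2.93 in Sin3a CKO and 40.4 ± 5.83 in Control. Next in Control came Cyp51 at 24.9 ± 4.42, Fdps at 21.2 ± 2.83 and Idi1 at 18.8 ± 2.90, neighbours that do not differ beyond their spread. With the length of the longest transcript instead, Fdps at 30.2 came before Cyp51 at 27.9, and Pmvk at 23.3 before Idi1 at 21.7. The lowest enzymes in Control were Hsd17b7 at 4.74 ± 0.771, Sc5d at 4.52 ± 0.569, Lss at 3.65 ± 0.415 and Tm7sf2 at 1.502 ± 0.250, but by longest transcript Lss, at 5.64, came above Hsd17b7 at 5.25 and Sc5d at 4.59. Acat2 and Hmgcs1 at the top and Tm7sf2 at the bottom kept their places under both lengths in Control.

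**Figure D3:**
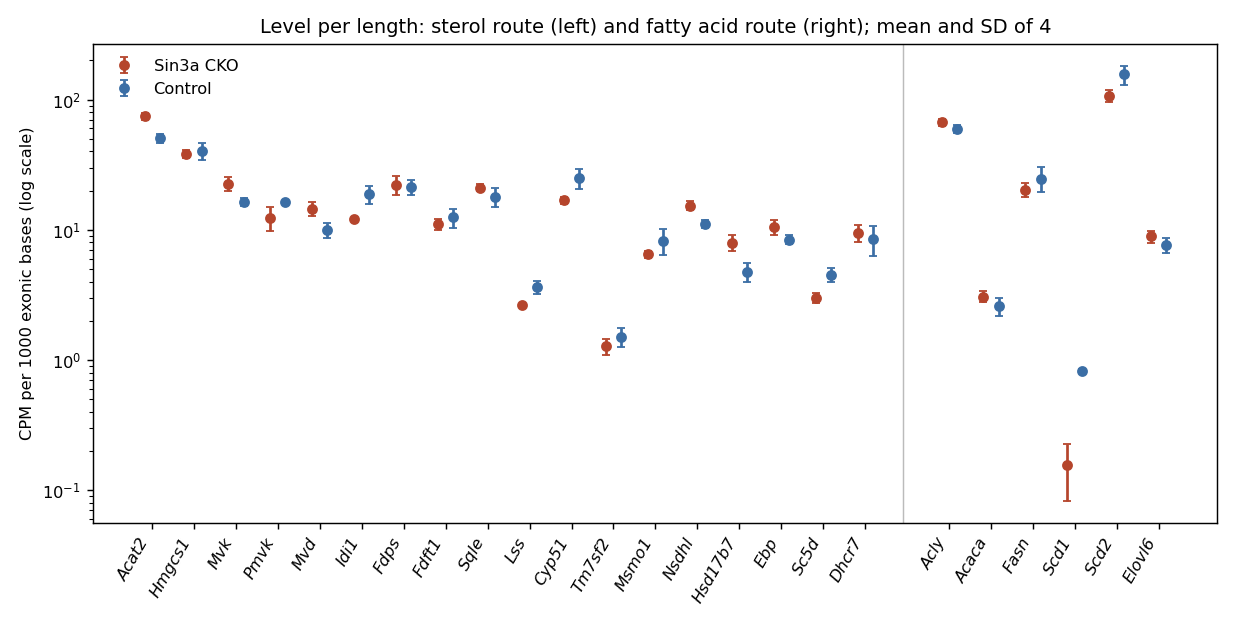
Mean and SD over 4 libraries of CPM per 1000 exonic bases, on a log axis, for the sterol enzymes in pathway order (left) and the fatty acid enzymes (right), with Sin3a CKO left of Control at each gene. In Sin3a CKO and in Control, levels run from 1.27 and 1.502 for Tm7sf2 to 74.5 and 50.6 for Acat2 in the sterol route, and from 0.154 and 0.821 for Scd1 to 107 and 156 for Scd2 in the fatty acid route.

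Of the 6 genes of sterol sensing and transfer 1 fell and 5 did not pass. Scap (chromosome 9, 110333288 to 110384950), which encodes the sterol sensor that escorts SREBP, was at 43.2, 46.9, 43.7 and 42.1 CPM in Sin3a CKO and 69.0, 67.1, 70.1 and 81.1 CPM in Control. The groups stood well apart, and it fell by 0.71 ± 0.08 (adjusted p = 0.00017). With length and GC trends removed Scap was at -0.49 ± 0.06, its smallest fall in the 18 alternatives, and still passed. It shares 985 exonic bases with 5830462I19Rik on the opposite strand. Insig1, the SREBP-induced retention protein, was at 62.5, 60.2, 70.1 and 84.4 CPM in Sin3a CKO and 77.3, 78.8, 91.3 and 141 CPM in Control, where Control 4 was far above the rest. Its change of -0.49 ± 0.20 did not pass (adjusted p = 0.0891). It was -0.31 ± 0.13 on leaving out Control 4 and -0.22 ± 0.13 when identifier prefix was a block. As Control 4 is the only library of its prefix, that block also takes it out of the comparison. Insig1 passed as lower in 5 of 18 alternatives, among them DESeq2 (-0.52 ± 0.19, adjusted p = 0.0198). Srebf1, the SREBP gene most tied to fatty acid synthesis, was at 81.2 to 105.7 CPM in Sin3a CKO and 105.8 to 141 CPM in Control, just short of overlap, with a change of -0.34 ± 0.12 (adjusted p = 0.0554). It passed as lower in 8 of 18 alternatives, and its change was -0.15 ± 0.09 with length and GC trends removed. Srebf2, the SREBP gene most tied to sterol synthesis, was at 168 to 185 CPM in Sin3a CKO and 184 to 238 CPM in Control, a change of -0.24 ± 0.10 (adjusted p = 0.0936). It passed as lower in 6 of 18 alternatives, among them DESeq2 and the prefix block (-0.23 ± 0.08, adjusted p = 0.0465), and was at -0.04 ± 0.09 with length and GC trends removed. Insig2, the other retention protein, was at 25.9 to 27.3 CPM in Sin3a CKO and 26.5 to 29.5 CPM in Control (-0.08 ± 0.07). Stard4, a cytosolic sterol carrier, was at 38.1 to 42.7 CPM in Sin3a CKO and 35.6 to 50.0 CPM in Control (0.00 ± 0.11). The median of these 6 genes was -0.29.

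The 3 removal genes each behaved differently. Cyp46a1 (chromosome 12, 108334381 to 108362234), the cholesterol hydroxylase known from neurons, was at 34.5, 35.1, 31.9 and 46.4 CPM in Sin3a CKO and 9.28, 7.49, 6.06 and 7.03 CPM in Control. Its lowest knockout was over 3 times its highest control, and it rose by 2.31 ± 0.16 (adjusted p = 2.73e-05). Of the 3518 genes called higher, 33 rose as far or further, itself included. Markers of neurons and glia did not rise with it: their summed level over 11 genes was 7.1 to 9.11 CPM in Sin3a CKO and 8.57 to 18.4 CPM in Control, 3 of the 11 fell and 0 rose. Of these markers 5, among them Snap25 and Elavl3, stayed under 1 CPM in every library. By the first part of the library identifiers, the log2 ratio of Cyp46a1 was 2.47 among s686 libraries and 2.48 among s1244 libraries.

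Abca1, which exports sterol to apolipoproteins, was at 148, 133, 99.1 and 150.2 CPM in Sin3a CKO and 195, 185, 151 and 218 CPM in Control. The highest knockout and the lowest control nearly met. The fall of 0.50 ± 0.15 (adjusted p = 0.0266) was lost on leaving out Sin3a CKO 2, Control 1 or Control 2, and when prefix was added as a block (-0.29 ± 0.14, adjusted p = 0.136). Abcg1, which exports sterol to lipoproteins, was at 4.87, 3.66, 4.02 and 8.61 CPM in Sin3a CKO and 5.25, 3.94, 3.86 and 0.212 CPM in Control. Control 4 alone was near 0, and the change of 0.67 ± 0.72 did not pass (adjusted p = 0.54). Without Control 4 it was 0.23 ± 0.30. The 12 macrophage and leukocyte markers summed to 306, 334, 405 and 532 CPM in Sin3a CKO 1 to 4. In Control 1 to 4 they summed to 690, 718, 360 and 26.5 CPM. Control 4 was lowest in both the sum and Abcg1. The highest sums were in Control 1 and 2, whereas Abcg1 was highest in Sin3a CKO 4. Their part in the Abcg1 values was not tested.

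**Figure D4:**
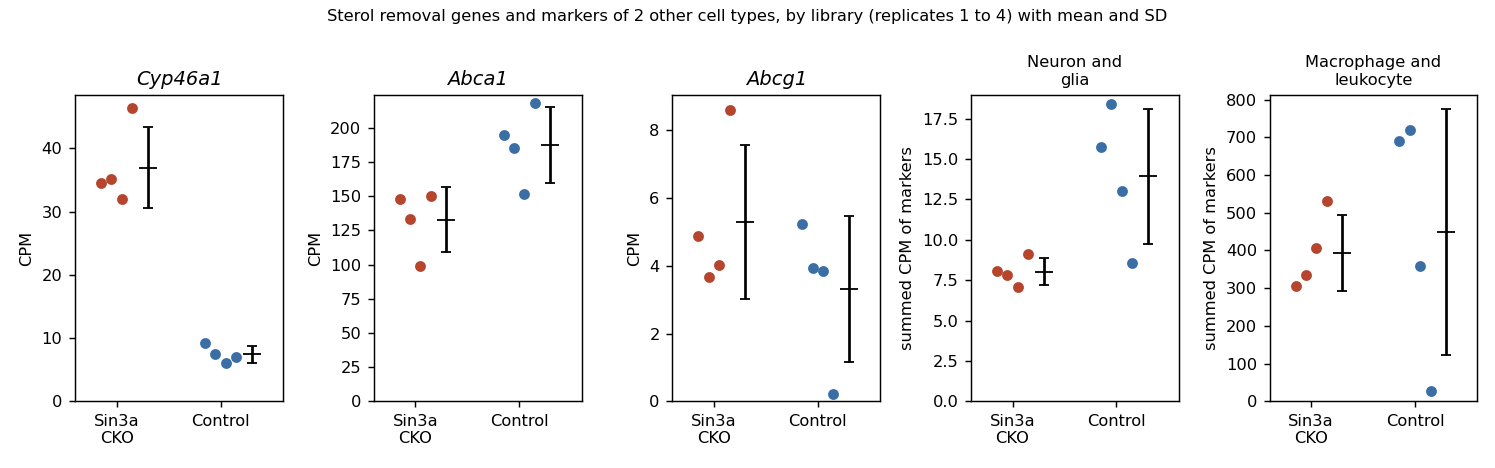
CPM of Cyp46a1, Abca1 and Abcg1, and summed CPM of 11 neuron and glia and 12 macrophage and leukocyte markers, in each library, with Sin3a CKO left of Control and the mean and SD of 4. Cyp46a1 lies at 31.9 to 46.4 CPM in Sin3a CKO and 6.06 to 9.28 CPM in Control, while the neuron sum is at 7.1 to 9.11 CPM in Sin3a CKO and 8.57 to 18.4 CPM in Control.

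In fatty acid synthesis the 4 genes that make and lengthen palmitate did not pass, and both desaturases fell. Acly, which makes cytosolic acetyl-CoA from citrate, was at 325 to 375 CPM in Sin3a CKO and 295 to 344 CPM in Control, a change of 0.17 ± 0.08 (adjusted p = 0.132). Acaca, acetyl-CoA carboxylase, was at 44.9 to 56.3 CPM in Sin3a CKO and 38.5 to 54.0 CPM in Control (0.25 ± 0.12). It is uncertain where it is nearly identical to Gm5182, at 99.2% over 6118 bases, 64.3% of its longest transcript. No count was found under the symbol Gm5182. Elovl6, which lengthens palmitate, was at 50.4 to 65.2 CPM in Sin3a CKO and 44.9 to 59.2 CPM in Control (0.21 ± 0.11). The groups overlapped for each of these. With a block for prefix Acly, Acaca and Elovl6 passed as higher, at 0.23 ± 0.07, 0.42 ± 0.10 and 0.37 ± 0.08. That block also takes Control 4, the only library of its prefix, out of the comparison. Fasn, fatty acid synthase, was at 249, 209, 194 and 239 CPM in Sin3a CKO and 260.2, 242, 225 and 357 CPM in Control, where Control 4 was again the highest library, and its change was -0.28 ± 0.15 (adjusted p = 0.174). It was -0.18 ± 0.09 without Control 4, -0.06 ± 0.10 with the prefix block and -0.06 ± 0.12 with length and GC trends removed, and Fasn passed as lower in 3 of 18 alternatives.

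Scd2, the abundant desaturase of this tissue and the highest of the 6 per length, was at 642, 559, 505 and 628 CPM in Sin3a CKO and 797, 754, 793 and 1064 CPM in Control. All knockouts were below all controls, and it fell by 0.55 ± 0.13 (adjusted p = 0.00772). Scd1, its paralog, was at 1.06, 1.04, 0.578 and 0.346 CPM in Sin3a CKO and 4.18, 3.97, 3.95 and 3.97 CPM in Control, from 33 to 113 counts in knockouts and 392 to 438 counts in controls. The controls were nearly level and the knockouts all far below, a fall of 2.41 ± 0.34 (adjusted p = 0.000586). Per length, Scd2 exceeded Scd1 by 542, 482, 783 and 1626 times in Sin3a CKO 1 to 4 and by 171, 170.3, 180 and 240.1 times in Control 1 to 4, with the highest ratio in Sin3a CKO 4, where Scd1 had 33 counts. The transcripts of Scd2 and Scd1 align at 95.5% identity over 623 bases, and with Scd2 at up to 105144 counts in a library the Scd1 value is uncertain where reads could be split between them. The median of the 6 fatty acid genes was -0.06.

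Control libraries differed among themselves in the sterol route. In 15 of its 18 enzymes both Control 3 and Control 4 were above both Control 1 and Control 2, a pattern noticed in these data, while 13.9% of all genes tested showed it. The exceptions were Mvd, Tm7sf2 and Ebp. In sterol sensing and transfer 4 of 6 genes had this order (Insig1, Srebf2, Scap and Stard4), in fatty acid synthesis 1 of 6 (Acly), and among all 33 genes 20. Control 1 and 2 carry prefix s686, Control 3 prefix s1244 and Control 4 prefix s722, and the sources used here do not say what these mean. Xist split the controls in the same way, being high in both s686 controls (174 and 184 CPM). Its level fell to 0.185 CPM for Control 3 and 0.0607 CPM for Control 4. Prefix s686 and high Xist thus mark the same controls, so the controls cannot separate prefix from Xist. The part of either in this order was not tested. Within s686 Sin3a CKO 4, at 0.0105 CPM of Xist, is set against Control 1 and 2, at 174 and 184 CPM. Within s1244 Sin3a CKO 1, 2 and 3, at 139, 0.133 and 117 CPM of Xist, are set against Control 3, at 0.185 CPM. Within s686 genotype and Xist thus cannot be told apart, and within s1244 only Sin3a CKO 2 is near Control 3 in Xist. Each prefix has 1 library on a side, so the ratios within prefixes have no test. The median of the 18 sterol enzymes was 0.11 within s686 and -0.15 within s1244. For the 15 called genes whose groups do not overlap, the sign within a prefix is fixed by that, and it adds no support. Pmvk, the other called gene, was at -0.61 within s686 and -0.37 within s1244. Of the 17 genes not called 8 differed in sign between the prefixes, among them Hmgcs1 (0.26 within s686 and -0.25 within s1244), Sqle (0.51 and -0.06), Dhcr7 (0.28 and -0.20) and Insig1 (0.11 and -0.51). Hsd17b7 kept its direction but was at 1.18 within s686 and 0.53 within s1244, and Idi1 was at -0.44 and -0.89.

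**Figure D5:**
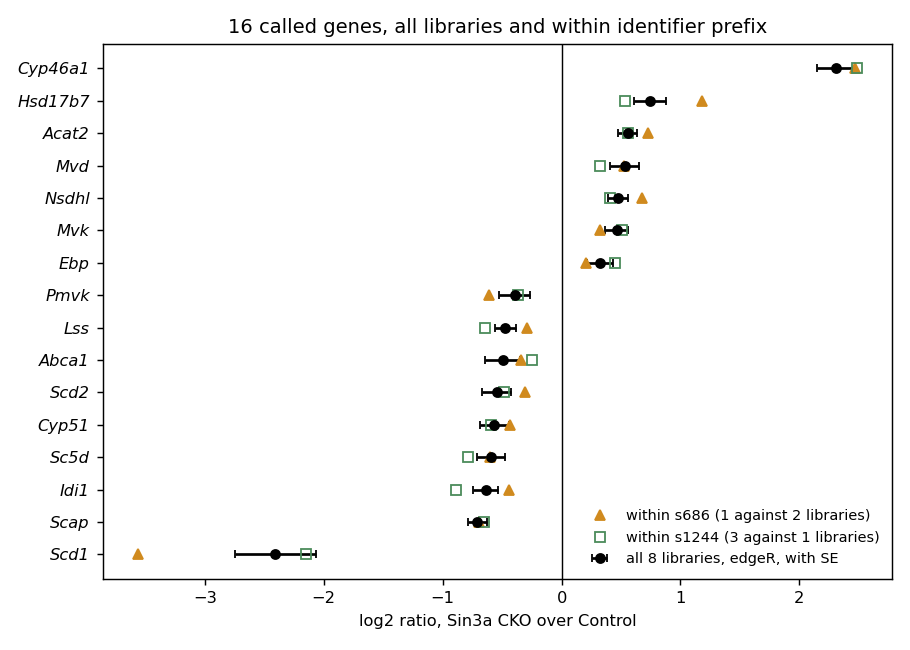
Log2 ratio, Sin3a CKO over Control, of the 16 called genes, with black points and SE bars from all 8 libraries, triangles within prefix s686 and open squares within prefix s1244. The ratios reuse the libraries behind the calls, so for the 15 genes without overlap the side of 0 is given and the spread of sizes is what the plot shows, with Scd1 at -3.56 and -2.15 and Cyp46a1 at 2.47 and 2.48 within the prefixes.

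Another 81 genes of lipid metabolism near these routes were examined by list, of which 78 were tested, 21 rose and 20 fell (52.6% called), where 17.3% of all genes tested rose, 16.1% fell and 33.4% were called. Those shares are the background for the counts by list that follow, and no list was tested against it. Among genes with a mean of at least 10 CPM the share called was larger, with 3012 of 9901 higher and 2688 lower. Among 18 genes of sterol proteolysis, trafficking and storage 6 rose and 2 fell. Npc2, which binds cholesterol in lysosomes, was at 273, 295, 349 and 264 CPM in Sin3a CKO and 133, 139.7, 149 and 152 CPM in Control, a rise of 1.04 ± 0.10 (adjusted p = 7.87e-05). Lrpap1, a chaperone of lipoprotein receptors, rose by 0.56 ± 0.08. Mbtps1, the protease that makes the first cut in SREBP, fell by 0.47 ± 0.10 to 308 ± 27.9 CPM in Sin3a CKO, against 426 ± 45.1 CPM in Control, and Rnf145, a sterol-responsive ubiquitin ligase, fell by 0.29 ± 0.07.

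Of 8 nuclear receptor and sterol hydroxylase genes 1 rose and 4 fell. Nr1h3, which encodes LXR alpha, was at 12.7, 13.1, 14.9 and 5.40 CPM in Sin3a CKO and 36.9, 37.2, 43.6 and 40.6 CPM in Control, a fall of 1.78 ± 0.27 (adjusted p = 0.00102). Nr1h2, which encodes LXR beta, rose by 0.50 ± 0.08 to 106 ± 7.29 CPM in Sin3a CKO, against 74.7 ± 4.73 CPM in Control. Abcg4, a sterol transporter related to Abcg1, fell by 1.85 ± 0.29, with 1.48 to 3.24 CPM in Sin3a CKO and 6.14 to 11.0 CPM in Control.

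Of 23 tested acyl chain genes 5 rose and 7 fell. Elovl2, which lengthens polyunsaturated chains, was at 0.639, 0.503, 0.760 and 0.168 CPM in Sin3a CKO and 8.14, 7.76, 6.73 and 9.02 CPM in Control, a fall of 3.93 ± 0.40 (adjusted p = 0.000105). Fads2, a desaturase of polyunsaturated chains, fell by 1.09 ± 0.09 to 31.1 ± 2.46 CPM in Sin3a CKO, against 66.0 ± 5.46 CPM in Control. Acsl1, which activates fatty acids, rose by 1.19 ± 0.11, and Elovl1, an elongase of very long chains, by 0.67 ± 0.07. Slc25a1, the citrate carrier that supplies Acly, was named after its value was seen and rose by 0.83 ± 0.10.

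Of 18 tested glycerolipid genes 6 rose and 4 fell. Lpin1, a phosphatidate phosphatase, rose by 1.19 ± 0.13 and Chka, choline kinase, by 0.83 ± 0.09, while Agpat3, a lysophospholipid acyltransferase, fell by 0.71 ± 0.12 and Cept1, which completes phosphatidylcholine and phosphatidylethanolamine, by 0.37 ± 0.06. Of 11 genes of the isoprenoid branches 3 rose and 3 fell. Dhdds and Pdss1, which make the dolichol and ubiquinone chains, rose by 0.29 ± 0.07 and 0.49 ± 0.14, and Coq2 and Pggt1b, which attach chains to ubiquinone and to proteins, fell by 0.48 ± 0.10 and 0.52 ± 0.11.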

How the data were processed

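Gene-level expected counts of 8 libraries were deposited by the authors as 1 table that pairs identifiers with symbols. All values were whole numbers, so rounding the deposited expected counts changed nothing. The submitters' processing notes name STAR 2.5.3a, edgeR, RSEM 1.3.0 and mm10 but give no roles. Libraries used Takara SMARTer v4 and Nextera XT after TRIzol extraction, per the labels' protocols. These kits add no molecular identifiers, so counts include PCR copies. The sources used here do not state annotation release or strand setting.

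Group and replicate came from sample titles, prefix from sample descriptions. The table was analysed whole in R 4.3.3 with edgeR 4.0.16: filterByExpr with a minimum count of 10, TMM scaling, and the quasi-likelihood test with robust dispersions, group as the only term, 2-sided, Benjamini-Hochberg adjusted over the 20315 genes tested, called under 0.05. The SE is the absolute log2 change divided by the square root of F. CPM use TMM-scaled totals. Coordinates and exonic lengths are from GENCODE M21 (GRCm38). Similar transcripts were sought with BLAST 2.17.0 at 90% identity over 300 bases or more. Members and lists were chosen with earlier results of these data known. Named of the other lists were the 2 called genes with the smallest p in each direction.

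Alternatives were DESeq2 1.42.0, limma-voom (limma 3.58.1), upper-quartile and RLE scaling, dropping the filter or requiring a mean of 10 CPM, blocks for replicate number and for prefix, per-library trends in length and GC removed, each library left out, and Control 4 and Sin3a CKO 3 left out together. Prefix s722 holds only Control 4, so the prefix block takes Control 4 out of the comparison of groups. The prefix block and the fit without Control 4 are therefore not independent checks. In a test on simulated data for Sin3a CKO over Control, with 19449 genes, 26% of 100 genes changed 1.5-fold and 68% of 100 changed 2-fold were recovered, with 3.09% of calls false. Far fewer genes were changed there than the 6792 called in the data, which makes the adjusted p stricter. These shares therefore do not give the recovery in the data. Replicates differed by more than sampling noise. P-values set the difference between groups against the spread between these libraries. With group as the only term, that spread also holds differences in prefix and in Xist.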

Additional observations from a re-analysis of the deposited data

Results flagged for a closer look

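In 66 groups of 4 libraries (33 genes in 2 groups) the most distant library was tested against its group, and 4 stood far from the others, where chance gives about 1 in 20. The gap to the nearest library, as a share of the group's range, was 0.934 for Mvd in Sin3a CKO 3, the highest knockout at 31.9 CPM. It was 0.860 for Srebf1 in Control 4, at 141 CPM, and 0.861 for Scd2 in Control 4, at 1064 CPM. It was 0.927 for Scd1 in Control 1, at 4.18 CPM, in a group that spans only 3.95 to 4.18 CPM. Without Control 4 Scd2 fell by 0.48 ± 0.09 and Srebf1 was at -0.29 ± 0.10, which did not pass.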

How the results depend on the processing

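Of the 16 called genes 12 kept their call and direction in every alternative that tested them, Scd1 not being tested at a mean of 10 CPM. The exceptions were Ebp, Pmvk, Abca1 and Mvd. Without 1 library 6 to 7 genes were higher and 7 to 10 lower, against 7 and 9 with all. Upper-quartile scaling, which moved the median of all genes by -0.11, gave 15 listed genes lower, the added ones being Msmo1, Insig1, Insig2, Srebf1, Srebf2 and Fasn. Without a filter, 2233 of all genes were higher, against 3518, and 12 of the other lipid genes, against 21. That fit tested 40662 genes and moved the median of all genes by -0.10. Across libraries left out, 2653 to 3260 of all genes were higher and 2548 to 3723 lower, and 15 to 24 other lipid genes were higher and 15 to 25 lower. The share of higher calls over all genes was 38.2% with upper-quartile scaling and 36.9% without a filter, beside 3518 higher and 3274 lower with TMM and the filter. The median of fatty acid genes was 0.12 at a mean of at least 10 CPM, where Scd1 was not tested, and -0.12 to -0.01 across libraries left out. That of sterol removal was 1.26 with limma-voom and 0.23 to 0.99 across libraries left out, the lowest without Control 4. Removing length and GC trends put the sensing median at -0.12, and it was -0.35 to -0.26 across libraries left out. The sterol synthesis median was -0.08 to 0.05 across them. The cause of these shifts was not tested. Fdps and Stard4, called in no alternative, changed sign in some. Fdps was at -0.046 with upper-quartile scaling, -0.041 without a filter, -0.046 with the prefix block and -0.085 with Sin3a CKO 3 and Control 4 left out, and -0.088 to 0.14 across libraries left out, the lowest without Sin3a CKO 3. Stard4 was at -0.031 with RLE scaling, -0.11 with upper-quartile scaling, -0.10 without a filter, -0.050 at 10 CPM, -0.035 with DESeq2, -0.10 with the prefix block, -0.046 with Sin3a CKO 3 and Control 4 left out, and -0.056 to 0.11 across libraries left out. The prefix block gave 9 listed genes higher and 10 lower, losing Ebp and Abca1 and gaining Msmo1, Srebf2, Acly, Acaca and Elovl6. Removing length and GC trends gave 9 higher and 9 lower, gaining Acly and Acaca. The replicate block gave 7 higher and 10 lower, losing Ebp and gaining Insig1 and Acaca. Numbers do not pair the libraries: same-numbered deviations correlated at -0.102 to 0.175, and 1 of 4 knockouts correlated best with its own number.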
